A study of Mus musculus with 4 samples.

Results

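The genes described here encode RNA-binding proteins that shorten the life of mRNAs in T cells. They are the Regnase genes Zc3h12a, Zc3h12c and Zc3h12d, the Roquin genes Rc3h1 and Rc3h2, the TTP genes Zfp36, Zfp36l1 and Zfp36l2, the ribonuclease gene N4bp1 and the RNA helicase gene Upf1. They were chosen by name, and all 10 were found among the 16142 genes of an RNA-seq table. The table held 2 libraries of WT CD4+ T cells and 2 of CD4+ T cells that express R111A, a form of Regnase-1 that the paracaspase MALT1 does not cleave. The comparison asked how the R111A cells differ from WT cells in the mRNAs of the decay factors themselves.

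WT cells came from WT B6 mice and R111A cells from Cd4CreERT2 LSL-R111A fl/fl mice on the C57BL/6 background. The study used mice of both sexes at 6 to 12 weeks of age. In the transgene, the CAG promoter drives the coding sequence of R111A, joined through P2A to EGFP, from the Rosa26 locus once Cre has removed a STOP cassette. Tamoxifen, which activates the Cre in cells that express Cd4, was injected i.p. over 5 days at 75 mg/kg, and the labels can be read as giving it to R111A mice or to both groups. CD4+ T cells of the spleen were purified with Dynabeads, sorted by FACS and stimulated for 12 h with anti-CD3 (5 µg/mL) and anti-CD28 (1 µg/mL); unstimulated cells were not analysed here. The labels give the WT mice no Cre, so the parts of Cre, EGFP and R111A in a difference between the groups cannot be told apart. The labels do not say whether the replicates came from separate animals, so a p-value here measures the spread between libraries, which may be technical.

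Regnase-1, an endonuclease with a CCCH zinc finger, cuts mRNAs at stem-loops of the 3′UTR with a pyrimidine-purine-pyrimidine loop, and it depends on the helicase UPF1 to do so on translated mRNAs. Roquin proteins bind stem-loops of the same kind, including the constitutive decay element (CDE), and TTP proteins bind AU-rich elements; both recruit the CCR4-NOT deadenylase. After T cell receptor stimulation MALT1 cleaves Regnase-1, Roquin and N4BP1, and in resting T cells these factors hold down mRNAs of cytokines and costimulatory receptors.

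Levels are given as FPKM, in which reads are scaled to the length of the gene and the size of the library, so that levels of different genes may be compared. Differences were tested with limma on log2(FPKM + 1), two-sided, over 9831 genes whose mean reached 1 FPKM, and a gene passed the test with an adjusted p under 0.05. Because of the added 1, a log2 fold change is smaller than the true change where a gene is low. Of the 10 genes, 9 reached the filter and Zc3h12c did not. Zc3h12a may include reads of the transgene and was not counted as a response. Of the other 8 genes tested, 1 rose (Zfp36) and 2 fell (Zc3h12d and Rc3h1) in R111A cells. Over all genes tested, 21.2% rose and 32.1% fell. Groups that did not overlap were found for 7 of the 10 genes, Zc3h12a among them, and for 78.3% of all genes tested. With a 2-fold change required as well, 1 of the 8 was higher and 0 were lower in limma, against 8.52% and 8.34% of all genes. At an unadjusted p under 0.05 in limma, 2 of the 8 were higher (Zfp36 and N4bp1) and 2 were lower, against 23.6% and 35.8% of all genes. With a 2-fold change as well, 1 was higher and 0 were lower, against 8.53% and 8.35%. At an adjusted p under 0.05 the counts over all genes were 2088 higher and 3152 lower, and they became 1335 and 5096 when each library was rescaled to the same sum (TPM) and 2567 and 2465 with median-of-ratios factors. Of the 8 genes, 5 passed in place of 3 on either of these scales, against 6431 (TPM) and 5032 (median-of-ratios factors) of all genes in place of 5240.

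**Figure D1:**
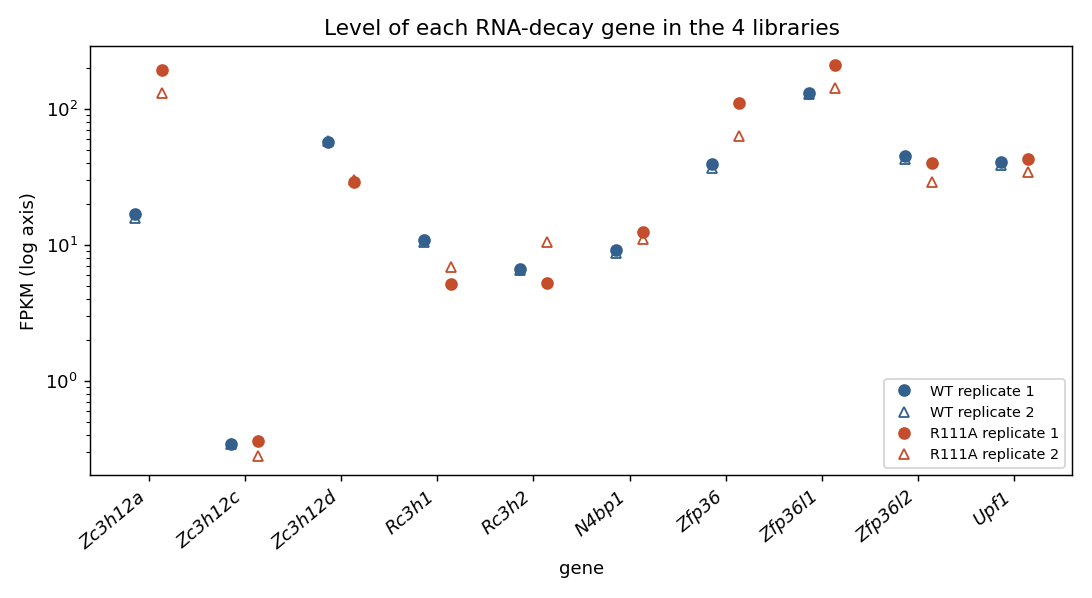
Level of each of the 10 genes in the 4 libraries, in FPKM on a log axis, with circles for replicate 1, triangles for replicate 2, blue for WT and red for R111A. The WT replicates lie close together for every gene shown, while the R111A replicates lie apart most for Rc3h2 (5.26 and 10.56 FPKM) and Zfp36 (110.54 and 63.50 FPKM), and also for Zc3h12a (196.30 and 130.87 FPKM), Zfp36l1 (210.35 and 142.74 FPKM) and Zfp36l2 (40.22 and 29.11 FPKM).

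Zc3h12a encodes Regnase-1 and lies at chr4:125118414-125127881 (GRCm38, the assembly of mm10; RefSeq annotation). Its mean level was 16.3 ± 0.884 FPKM in WT and 164.0 ± 46.3 FPKM in R111A (SD, n = 2 each). Both R111A libraries lay above both WT libraries, with the mean FPKM 10.0 times that of WT. Of the 2755 bases of its GENCODE transcript, 1791 are coding, and the transgene carries the coding sequence; the values do not separate transgene from endogenous reads. The Zc3h12a mRNA is itself a known target of Regnase-1. Its 856-base 3′UTR held 2 predicted stem-loops with a loop that contains pyrimidine, purine and pyrimidine in a row, shown here because they have the form that Regnase-1 reads. Both lie on the minus strand of GRCm38, at chr4:125118907-125118921 and chr4:125118886-125118902, with the loop in capitals.
Zc3h12a stem-loop 1: gccggCACCAccggc
Zc3h12a stem-loop 2: taggcacCATgtgcctg
Such predictions are common: 90.9% of the 3′UTRs at least as long, read over their first 856 bases, held 1 or more.

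Zc3h12d encodes Regnase-4, a paralogue known to restrain cytokine mRNAs in T cells, and lies at chr10:7832323-7870397. It was at 56.98 and 57.93 FPKM in WT replicates 1 and 2, and at 28.95 and 30.22 FPKM in R111A replicates 1 and 2. All WT values lay far above the R111A values, and the replicates of each group differed little. On the log2 scale it fell by 0.93 (SE 0.13, adjusted p = 0.00044 from limma), lower in both R111A libraries. In bulk samples, fewer cells of a type and less RNA per cell cannot be told apart. Zc3h12c, the gene of Regnase-3, which is known mainly from myeloid cells, was at 0.34 and 0.34 FPKM in WT, against 0.36 and 0.28 FPKM in R111A. These values overlapped, and with no filter on low values its log2 fold change was -0.02.

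Rc3h1 encodes Roquin-1, which binds and destabilises mRNAs such as Icos, and lies at chr1:160906411-160974976. It was at 10.84 and 10.43 FPKM in WT replicates 1 and 2, and at 5.18 and 6.91 FPKM in R111A replicates 1 and 2. Both R111A libraries lay under both WT libraries, and replicate 1 was the lower of them. Its log2 fold change was -0.73 (SE 0.16, adjusted p = 0.0052 from limma). Rc3h2 encodes Roquin-2, a paralogue with overlapping targets, and lies at chr2:37368861-37424370. It was at 6.61 and 6.53 FPKM in WT, against 5.26 and 10.56 FPKM in R111A. The groups overlapped: R111A replicate 1 lay under both WT libraries and R111A replicate 2 above them. Its log2 fold change was 0.17 (SE 0.25, 95% interval -0.41 to 0.75, adjusted p = 0.60 from limma) and turned to -0.12 after rescaling to TPM. Without R111A replicate 1 it was 0.61 and passed the test, and without R111A replicate 2 it was -0.27.

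The 3′UTRs of both Roquin genes hold a CDE-like match, here TTC, then pyrimidine, purine and pyrimidine, then GAA, searched on the transcript strand. The match is shown with its flanks because Roquin proteins bind this form of hairpin. The sites lie in the 3′UTR at chr1:160971654-160971680 on the plus strand (Rc3h1) and chr2:37373803-37373829 on the minus strand (Rc3h2) of GRCm38, with the matched bases in capitals.
Rc3h1 site: gccaataacTTCTGTGAAgttgccttt
Rc3h2 site: ttaattaacTTCTGTGAAgttgtttac
The sites share a run of 17 bases, and in both the match overlaps a predicted stem-loop with TGT in its loop. The other Rc3h1 match, at chr1:160968033-160968059 (+), overlaps no predicted stem-loop. Rc3h1 held 2 matches, as many as 4.49% of 3′UTRs at least as long read over the same length, of which 23.6% held any. Rc3h2 held 1 match, found in 17.2% of 3′UTRs of its length. None of the other 8 genes held such a match in the 3′UTR used.

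Zfp36 encodes TTP, the founding member of its family, whose mRNA is induced early after stimulation and which promotes deadenylation of AU-rich mRNAs. It lies at chr7:28376784-28379228. It was at 39.24 and 36.65 FPKM in WT replicates 1 and 2, and at 110.54 and 63.50 FPKM in R111A replicates 1 and 2. Both R111A libraries lay above both WT libraries, with replicate 1 far above replicate 2. The log2 fold change was 1.12 (SE 0.23, adjusted p = 0.0037 from limma), and it was 0.73 without R111A replicate 1 and 1.52 without R111A replicate 2.

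Zfp36l1 encodes a TTP paralogue that limits T cell activation and lies at chr12:80107760-80113013. It was at 132.15 and 129.73 FPKM in WT, against 210.35 and 142.74 FPKM in R111A. The groups did not overlap, but R111A replicate 2 stood near the WT level and R111A replicate 1 well above it. The log2 fold change of 0.40 (SE 0.18, 95% interval -0.01 to 0.82) did not pass the test (adjusted p = 0.092 from limma). It was 0.68 and passed without R111A replicate 2, and it was 0.12 without R111A replicate 1. It also passed with median-of-ratios factors (0.54), after quantile normalization (0.62) and with the replicate block (0.40).

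Zfp36l2 encodes the remaining TTP paralogue, which with ZFP36L1 is needed for thymocyte development, and lies at chr17:84183924-84187947. It was at 44.97 and 43.05 FPKM in WT, against 40.22 and 29.11 FPKM in R111A. Here the R111A libraries lay under the WT libraries, with replicate 2 as the lowest. Its log2 fold change of -0.35 (SE 0.17, 95% interval -0.74 to 0.03) did not pass the test (adjusted p = 0.11 from limma). It passed after rescaling to TPM (-0.68) and without R111A replicate 1 (-0.58), and it was -0.13 without R111A replicate 2.

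TTP proteins bind TATTTAT (in RNA, UAUUUAU), searched on the transcript strand, and the 3′UTRs of all 3 TTP genes held it 3 times. A few of these sites are shown because the TTP family is known to act on its own mRNAs. They lie in 3′UTRs on the minus strand of GRCm38, at chr7:28376967-28376993 and chr7:28376927-28376953 (Zfp36), chr12:80108423-80108449 (Zfp36l1) and chr17:84184915-84184941 (Zfp36l2), with the heptamer in capitals.
Zfp36 site 1: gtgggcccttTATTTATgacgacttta
Zfp36 site 3: gattttatagTATTTATatatattggg
Zfp36l1 site 1: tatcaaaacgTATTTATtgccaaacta
Zfp36l2 site 1: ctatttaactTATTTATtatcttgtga
Over the 774 bases of the Zfp36 3′UTR, 17.9% of 3′UTRs at least as long held the heptamer and 0.463% held it 3 times or more. For Zfp36l1 the shares were 36.7% and 2.43%, and for Zfp36l2 they were 36.4% and 2.48%. The heptamer was found 2 times in Rc3h1 and Zc3h12c and 3 times in Rc3h2, whose 3′UTRs are longer, and it was not found in those of Zc3h12a, Zc3h12d, N4bp1 and Upf1. Among the genes with 3 copies, Zfp36 rose while the other 3 did not pass the test.

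N4bp1 encodes a KH-domain and NYN-domain ribonuclease related to the Regnases and lies at chr8:86841136-86885296. It was at 9.23 and 8.80 FPKM in WT, against 12.37 and 11.05 FPKM in R111A. Both R111A libraries were higher than both WT libraries by a narrow margin. Its log2 fold change of 0.34 (SE 0.14, 95% interval 0.02 to 0.66) did not pass the test (adjusted p = 0.068 from limma). It passed with median-of-ratios factors (0.47), after quantile normalization (0.41) and without R111A replicate 2 (0.42), and it was 0.04 after rescaling to TPM.

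Upf1 encodes the helicase of nonsense-mediated decay and lies at chr8:70331493-70353423. It was at 41.05 and 38.59 FPKM in WT, against 42.97 and 34.23 FPKM in R111A. The R111A libraries enclosed the WT libraries, and no difference was found. Its log2 fold change was -0.05 (SE 0.15, 95% interval -0.39 to 0.29, adjusted p = 0.79 from limma). It passed as lower after rescaling to TPM (-0.38), and it turned to 0.08 with median-of-ratios factors, 0.10 with quantile normalization and 0.11 without R111A replicate 2.

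**Figure D2:**
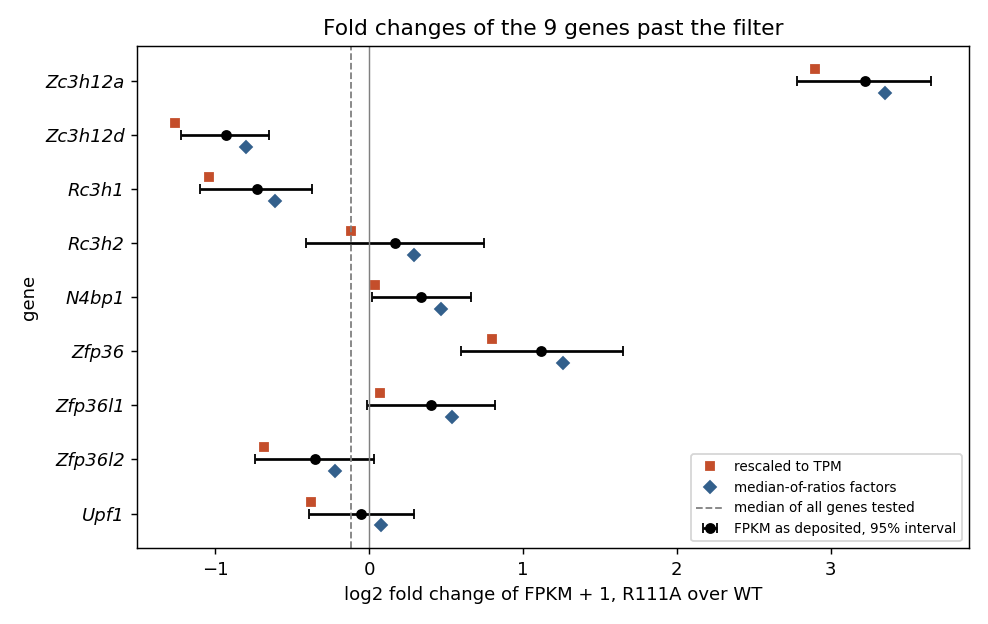
Log2 fold change of FPKM + 1, R111A over WT, of the 9 genes past the filter, with black circles and 95% intervals for FPKM as deposited, red squares for TPM and blue diamonds for median-of-ratios factors. The dashed line is the median of all genes tested (-0.12), and Zc3h12a, Zfp36, Zc3h12d and Rc3h1 keep their side of 0 on each of the 3 scales while Rc3h2 and Upf1 do not.

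The median log2 fold change of all genes tested was -0.12 on the FPKM scale, -0.42 in TPM, 0.01 with median-of-ratios factors and -0.04 after quantile normalization. Relative to that median, Zfp36 lay at 1.24 in FPKM and 1.21 in TPM. N4bp1 lay at 0.46 above the median in FPKM, in TPM and with median-of-ratios factors. Zfp36l1 lay at 0.52 in FPKM and 0.49 in TPM. Zc3h12d lay at -0.82 and -0.85, Rc3h1 at -0.62 and -0.62, and Zfp36l2 at -0.24 and -0.26. Upf1 stayed close to the median, at 0.06 and 0.04, and Rc3h2 lay at 0.28 and 0.29. Quantile normalization moved the genes unequally. Relative to its own median, Zfp36 then lay at 1.36, Zfp36l1 at 0.67, N4bp1 at 0.45, Rc3h2 at 0.24 and Upf1 at 0.14, with Zfp36l2 at -0.15, Rc3h1 at -0.65 and Zc3h12d at -0.74. The median log2 fold change over the 8 tested genes other than Zc3h12a was 0.06 in FPKM, against -0.12 for all genes, and its sign turned in TPM (-0.25), without R111A replicate 1 (-0.04) and without R111A replicate 2 (-0.01). It was 0.18 with median-of-ratios factors and 0.15 after quantile normalization.

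The order of the levels differed between the groups. In WT cells Zfp36l1 was the most abundant of the 10 genes (131.0 FPKM), above 91.8% of the genes tested. It was followed by Zc3h12d (57.5), Zfp36l2 (44.0), Upf1 (39.8), Zfp36 (37.9), Zc3h12a (16.3), Rc3h1 (10.6), N4bp1 (9.02), Rc3h2 (6.57) and Zc3h12c (0.34), all as mean FPKM. Upf1 and Zfp36 were the only neighbours in the WT order whose libraries overlapped. In R111A cells Zfp36l1 (177.0 FPKM) and Zc3h12a (164.0) led and overlapped, and Zfp36 (87.0) came next, above 89.4% of the genes tested against 73.9% in WT. Below it Upf1 (38.6), Zfp36l2 (34.7) and Zc3h12d (29.6) overlapped with their neighbours in turn, N4bp1 (11.7) stood apart, and Rc3h2 (7.91) and Rc3h1 (6.04) overlapped. Zc3h12c was again the lowest. Zfp36 and Zfp36l2 thus stood in opposite order in the groups, and so did Rc3h1 and Rc3h2 by their means.

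Shares within a family do not depend on a factor common to a library. Each share below was compared with an exact permutation test (two-sided) over the 4 libraries, in which 0.333 is the smallest p that 2 against 2 allows, so that none could pass 0.05. Rc3h1 made up 62.1% and 61.5% of the Roquin FPKM in WT and 49.6% and 39.6% in R111A. The groups did not overlap (exact p = 0.333), and Rc3h1 was the larger part in both WT libraries and the smaller in both R111A libraries. In R111A replicate 1 the Roquin genes were nearly level, with Rc3h1 at 5.18 and Rc3h2 at 5.26 FPKM. Zfp36 made up 18.1% and 17.5% of the TTP FPKM in WT and 30.6% and 27.0% in R111A (exact p = 0.333). Zfp36l2 made up 20.8% and 20.6% in WT and 11.1% and 12.4% in R111A (exact p = 0.333). The share of Zfp36l1, the main TTP transcript in every library, was 61.1% and 61.9% in WT and 58.3% and 60.7% in R111A (exact p = 0.333). So the order of Zfp36 and Zfp36l2 was reversed, while the mean share of Zfp36l1 differed by -2.06 percentage points (-0.861 without R111A replicate 1 and -3.26 without R111A replicate 2). Zc3h12d made up 76.7% and 78.3% of the Regnase FPKM in WT and 12.8% and 18.7% in R111A, where Zc3h12a may hold transgene reads.

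**Figure D3:**
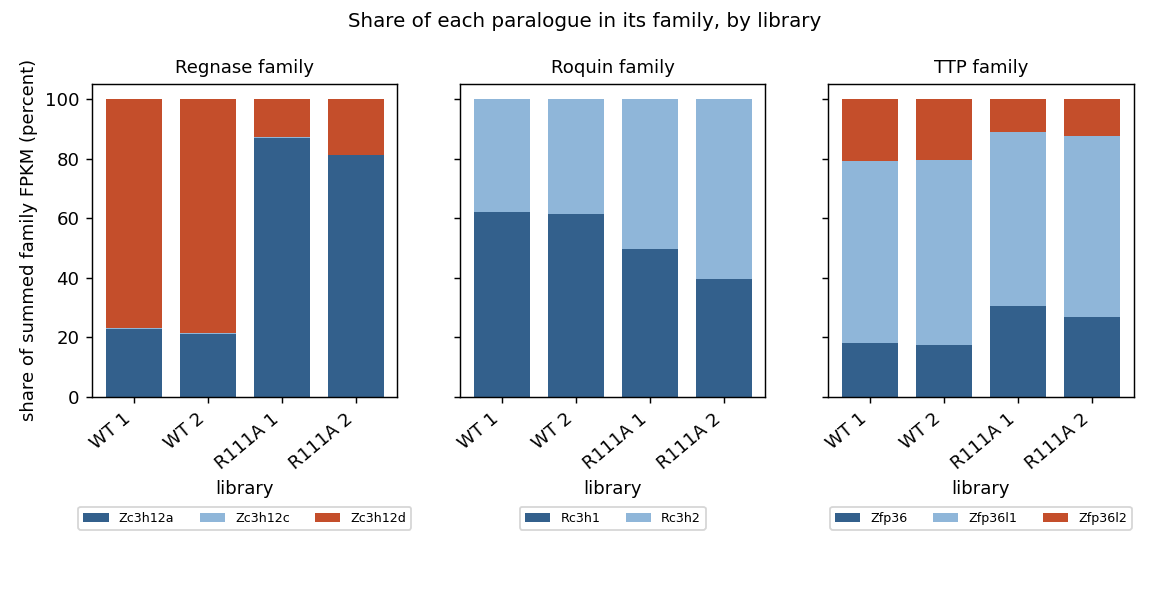
Share of each paralogue in the summed FPKM of its family in percent, with 1 bar per library. The Rc3h1 part is larger than the Rc3h2 part in both WT libraries. It is smaller in R111A replicate 2 (39.6%) and nearly level with Rc3h2 in R111A replicate 1 (49.6%). The Zfp36 part is larger in both R111A libraries (27.0% and 30.6%) than in both WT libraries.

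The R111A replicates differed from each other more than the WT replicates did. Over all genes tested, the SD of the log2 difference between replicates was 0.315 in R111A and 0.167 in WT. Zfp36 was higher in R111A replicate 1 by 0.79 on the log2(FPKM + 1) scale, and 0.549% of the genes tested had a difference as high. Zc3h12a, Zfp36l1 and Zfp36l2 were higher in the same library by 0.58, 0.56 and 0.45. Differences as high were found for 2.29%, 2.9% and 6.59% of the genes tested. Rc3h2 and Rc3h1 went the other way, with differences of -0.88 and -0.36, and 0.224% of genes were as low as Rc3h2. As low as Rc3h1 were 13.9% of genes. The TTP genes were thus all higher in R111A replicate 1 and the Roquin genes in R111A replicate 2. Zc3h12d differed by -0.06.

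The genes most like 3 of the members were found by the Euclidean distance over the 4 libraries in log2(FPKM + 1), each gene centred on its mean. Nearest to Zc3h12a were Sema7a, H4c17 and Phlda3, each at a distance of 0.21. Nearest to Zfp36l2 were Cc2d1a (0.02), Praf2 (0.05) and Phf12 (0.05), none of which passed the test. They were chosen for values like those of Zfp36l2, so their likeness to it under other settings was fixed by that choice. After rescaling to TPM they passed, at -0.65, -0.67 and -0.63. They were at -0.56, -0.56 and -0.52 without R111A replicate 1 and at -0.13, -0.15 and -0.11 without R111A replicate 2. Nearest to Rc3h1 were Hspa14 (0.02), Mcu (0.02) and Rdx (0.04), and Hspa14, an example of these, was at 141.90 and 139.69 FPKM in WT, against 74.22 and 95.11 FPKM in R111A. With 4 libraries many genes can lie near a pattern, and the distance orders them without a test.

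The machinery that these factors recruit was read next, from lists written by hand. Over all 9831 genes tested 21.2% rose and 32.1% fell, and in TPM 1335 rose and 5096 fell. Of 15 genes of the CCR4-NOT complex and other deadenylases, 2 rose and 2 fell, with a median log2 fold change of -0.09 against -0.12 for all genes, which turned to 0.04 with median-of-ratios factors and 0.05 after quantile normalization. This median was -0.42 in TPM, -0.04 without WT replicate 1 and -0.15 without R111A replicate 1. Cnot9, a subunit that RNA-binding proteins contact, was at 33.09 and 32.09 FPKM in WT, against 12.33 and 11.15 FPKM in R111A. This is a log2 fold change of -1.40 (SE 0.13, adjusted p = 7.3e-05 from limma). Its libraries did not overlap between the groups, which was so for 78.3% of all genes tested. Parn also fell (-0.72), and Pan2, a deadenylase subunit that trims long poly(A) tails, rose (0.89, adjusted p = 0.001). Pan3, the partner of PAN2 and named after its value was seen, rose by 0.61, and did not pass in TPM (0.30) or without WT replicate 1 (0.67) or WT replicate 2 (0.55). After rescaling to TPM 1 of these 15 genes rose and 8 fell, and without R111A replicate 2 the number that passed was 7 in place of 4.

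Of 19 genes of decapping and 5′-3′ decay, 2 rose and 7 fell, against 21.2% and 32.1% of all genes. Their median was -0.34, against -0.12 for all genes. In TPM 1 rose and 12 fell, against 1335 and 5096 of all 9831 genes, with a median of -0.68 against -0.42. The median of the list was -0.21 with median-of-ratios factors, -0.12 after quantile normalization and -0.22 without WT replicate 2. Dcp2, the catalytic decapping enzyme, was at 14.82 and 15.05 FPKM in WT, against 3.21 and 4.88 FPKM in R111A. This is a log2 fold change of -1.68 (SE 0.18, adjusted p = 0.00012 from limma), with the R111A libraries far under the WT libraries. Lsm4, of the LSM ring that binds deadenylated ends, fell by 0.92, and Dcp1b, a cofactor of DCP2, rose (0.88, and 0.53 with a pseudocount of 5 FPKM) from a lower level. The other gene that rose was Lsm1 (0.39), named after its value was seen, which did not pass in TPM (0.07), with no filter on low values (0.39), or without WT replicate 1 (0.32), WT replicate 2 (0.45) or R111A replicate 2 (0.31). Without WT replicate 1 the number that passed was 4 and without WT replicate 2 it was 5, in place of 9.

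Of 17 genes of the exosome and 3′-5′ decay, 0 rose and 10 fell by limma, against 21.2% and 32.1% of all genes. Their median was -0.40, against -0.12 for all genes. At an unadjusted p under 0.05, 0 were higher and 12 were lower, against 23.6% and 35.8% of all genes. Dis3, the exosome's catalytic subunit, was at 47.91 and 47.39 FPKM in WT, against 26.85 and 32.08 FPKM in R111A. It fell by 0.68 on the log2 scale (SE 0.14, adjusted p = 0.0037 from limma). Exosc7 and Exosc3, subunits of its core, fell by 0.62 and 0.58 (-0.95 and -0.91 in TPM). These changes were moderate, and none of the 10 reached 2-fold. The number that passed was 3 without WT replicate 1 and 1 without WT replicate 2, in place of 10. Exosc3 did not pass without WT replicate 1 (-0.60) or WT replicate 2 (-0.56), Exosc7 did not pass without WT replicate 2 (-0.56), and neither passed after quantile normalization (-0.34 and -0.36). In TPM 14 fell, with a median of -0.73, against 5096 of all 9831 genes and a median of -0.42. With median-of-ratios factors 5 fell (median -0.27), and after quantile normalization 2 rose and 3 fell (median -0.21). Over all genes 2567 rose and 2465 fell with median-of-ratios factors, and 2321 rose and 2624 fell after quantile normalization.

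Of 14 genes of nonsense-mediated decay beside Upf1, 2 rose and 1 fell, against 21.2% and 32.1% of all genes. Their median was 0.08 against -0.12 for all genes. In TPM it turned to -0.25 and 5 passed, each as lower, against 1335 higher and 5096 lower of all 9831 genes. With median-of-ratios factors, and likewise after quantile normalization, 4 rose and 1 fell, with medians of 0.21 and 0.20. Over all genes 2567 rose and 2465 fell with median-of-ratios factors, and 2321 rose and 2624 fell after quantile normalization. Without R111A replicate 1 the median of the list was 0.05. Smg8, a regulator of the UPF1 kinase SMG1, was at 16.28 and 14.78 FPKM in WT, against 7.75 and 6.67 FPKM in R111A (log2 fold change -1.01, SE 0.15, adjusted p = 0.00061 from limma). Its partner Smg9 rose by 0.50 (adjusted p = 0.042), and so did Upf3a (0.50, adjusted p = 0.012). The rises of Smg9 and Upf3a did not pass without WT replicate 1 (0.55 and 0.56) or WT replicate 2 (0.45 and 0.44), nor in TPM (0.18 and 0.17), and Smg9 did not pass without R111A replicate 1 (0.25) or with no filter on low values (0.50). The number that passed was 1 without WT replicate 1 or WT replicate 2, 5 without R111A replicate 1 and 7 without R111A replicate 2, in place of 3.

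Of 21 other mRNA stability factors tested, 3 rose and 7 fell, against 21.2% and 32.1% of all genes. Their median was -0.05, against -0.12 for all genes, and it turned to 0.07 both with median-of-ratios factors and after quantile normalization. In TPM 1 rose and 10 fell, against 1335 and 5096 of all 9831 genes, with a median of -0.38 against -0.42. The median of the list was -0.17 with a filter at 5 FPKM and -0.09 with no filter. It was -0.08 without WT replicate 1, 0.00 without R111A replicate 1 and -0.19 without R111A replicate 2. Caprin1 fell by 0.94, Pcbp1 by 0.85 and Tial1, an AU-rich element binder, by 0.82. Pcbp1 was at 399.36 and 386.34 FPKM in WT, against 256.54 and 183.77 FPKM in R111A, with no overlap. The genes that rose, named after their values were seen, were Mex3b (0.74, with 1.15 and 0.29 at pseudocounts of 0.1 and 5 FPKM), Zc3h7a (0.72) and Arid5a (0.58), a stabiliser of Regnase-1 targets. Arid5a did not pass in TPM (0.27) or without WT replicate 1 (0.62) or WT replicate 2 (0.53), and Zc3h7a not in TPM (0.40) or without WT replicate 1 (0.63). The number that passed was 4 without WT replicate 1 and 5 without WT replicate 2, in place of 10.

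The MALT1 side of the pathway was read in the same way. The list held 8 genes, Malt1, its activator Bcl10 and genes of MALT1 substrates or related signalling factors. Of these, 4 rose and 0 fell by limma, against 21.2% and 32.1% of all genes. Their median was 0.30, against -0.12 for all genes. In TPM it turned to -0.02, and 2 rose and 2 fell, against 1335 and 5096 of all 9831 genes. The median was 0.47 after quantile normalization and 0.57 without R111A replicate 2. At an unadjusted p under 0.05, 1 gene of the list was lower, against 35.8% of all genes. This was Traf6 (-0.37), named after its value was seen, which passed as lower in TPM (-0.69), with the replicate block (-0.37) and without R111A replicate 1 (-0.25) or R111A replicate 2 (-0.48). Malt1, the protease itself, was at 65.89 and 66.14 FPKM in WT, against 134.60 and 186.49 FPKM in R111A. This is a log2 fold change of 1.25 (SE 0.17, adjusted p = 0.0004 from limma), and both R111A libraries held more than 2 times the FPKM of either WT library. Bcl10 rose by 0.70 (adjusted p = 0.0019; 0.37 in TPM), and Tnfaip3, a deubiquitinase that MALT1 cleaves, by 0.59 (adjusted p = 0.0094). Tnfaip3 did not pass in TPM (0.27) or without WT replicate 1 (0.62) or WT replicate 2 (0.57), and the number that passed was 2 without WT replicate 1 or WT replicate 2, in place of 4. Relb, named after its value was seen, rose by 0.48 and did not pass in TPM (0.15), with no filter on low values (0.48), or without WT replicate 1 (0.44) or WT replicate 2 (0.52), and was at 0.26 without R111A replicate 1.

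**Figure D4:**
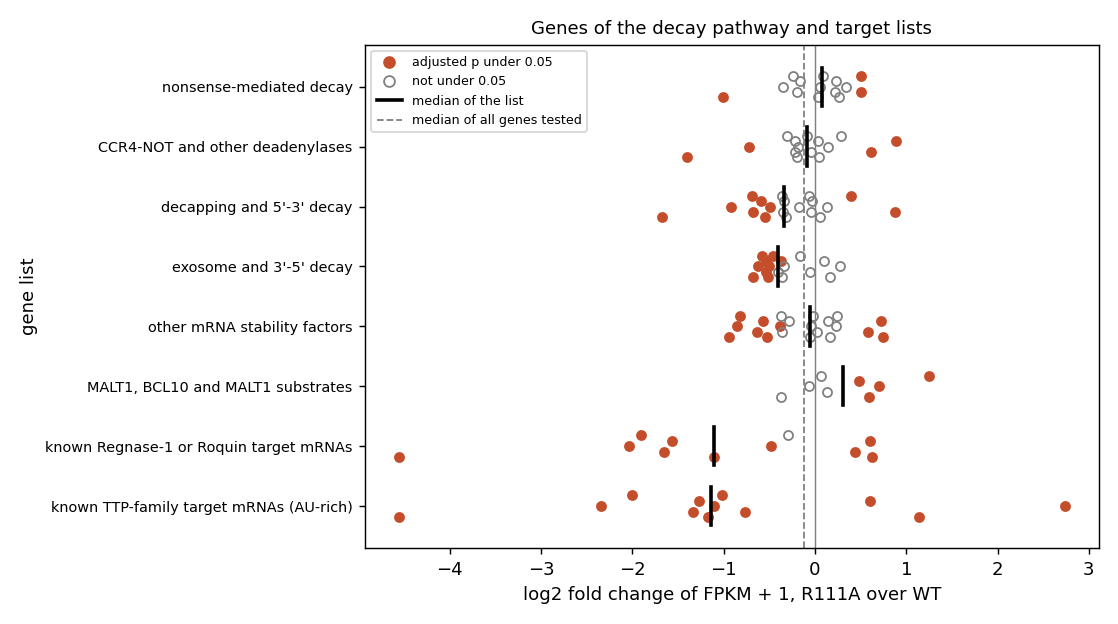
Log2 fold change of FPKM + 1, R111A over WT, of each tested gene in 8 hand-written lists, filled where the adjusted p is under 0.05, with black bars for the median of each list and a dashed line for the median of all genes tested (-0.12). The median of the Regnase-1 or Roquin targets lies at -1.10 (-0.28 over all 16 genes with no filter, -0.79 without Bcl2l1). That of the TTP targets lies at -1.14 (-1.02 over all 15 genes with no filter, -0.62 with a pseudocount of 5 FPKM). The median of the exosome list lies at -0.40 (-0.73 in TPM, -0.21 after quantile normalization).

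Known target mRNAs of these factors were read last. Of 16 known Regnase-1 or Roquin targets 11 were tested, and 3 rose and 7 fell, against 21.2% and 32.1% of all genes. Their median log2 fold change was -1.10, which was -0.99 relative to all genes. This median covers the targets past the filter, and over all 16 with no filter it was -0.28, with 3 higher and 8 lower. With no filter 2479 of all 14448 genes were higher and 2859 lower, with a median of 0.00. The study picked out Bcl2l1 partly from these libraries, so its place in the list is not independent of its fall. Without it, a choice made after seeing the data, 3 of 10 rose and 6 fell, with a median of -0.79 (-0.26 over 15 with no filter). The largest change was that of Il2 (-4.56). Bcl2l1, which encodes the survival protein Bcl-xL, was at 88.55 and 95.78 FPKM in WT, against 24.83 and 18.94 FPKM in R111A (log2 fold change -2.04, SE 0.16, adjusted p = 2.7e-05 from limma). Ctla4, an inhibitory receptor gene, was at 38.94 and 44.32 FPKM in WT, against 8.94 and 12.03 FPKM in R111A (log2 fold change -1.90, SE 0.17, adjusted p = 4.6e-05 from limma). Neither gene overlapped between the groups, as was so for 78.3% of all genes tested. The genes that rose, named after their values were seen, were Nfkbiz (0.62), Tnf (0.60) and Nfkbid (0.44), and none of the 3 passed in TPM (0.31, 0.27 and 0.11), without WT replicate 1 (0.58, 0.60 and 0.42) or without WT replicate 2 (0.65, 0.61 and 0.47). Nfkbid was at 0.70 after quantile normalization. In TPM 8 of the targets passed, each as lower, against 1335 higher and 5096 lower of all 9831 genes.

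Of 15 known AU-rich targets of the TTP family 12 were tested, and 3 rose and 9 fell, against 21.2% and 32.1% of all genes. Their median was -1.14, which was -1.02 relative to all genes. Csf2, Il3, Il10 and Il17a, named after their values were seen, fell, and they reached the filter only through their WT values. Over all 15 with no filter the median was -1.02, with 3 higher and 9 lower, against 2479 and 2859 of all 14448 genes. With a filter at 5 FPKM 8 were tested, and 3 rose and 5 fell, with a median of -1.06, against 1489 and 2615 of all 7648 genes. At the main filter the median was -0.62 with a pseudocount of 5 FPKM and -1.45 with 0.1 FPKM. Il2, Tnf, Ifng and Ier3 are counted in both target lists, and the hand-written Treg markers also hold Ctla4. Vegfa, the gene of an angiogenic growth factor, was at 1.15 and 1.07 FPKM in WT, against 14.52 and 11.74 FPKM in R111A (log2 fold change 2.74, SE 0.15, adjusted p = 7.6e-06 from limma, and 1.56 with a pseudocount of 5 FPKM). Ccl3, a chemokine gene, was at 30.13 and 24.03 FPKM in WT, against 4.16 and 4.88 FPKM in R111A (log2 fold change -2.34, SE 0.16, adjusted p = 1.5e-05 from limma). Fos (1.14), named after its value was seen, and Tnf were the other genes that rose, and Tnf (0.60) did not pass in TPM (0.27) or without WT replicate 1 (0.60) or WT replicate 2 (0.61). These targets thus moved in both directions while Zfp36 itself was higher, and the part of any decay factor in these levels was not tested.

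Markers were read to see which cells the libraries held. The 10 CD4+ T cell markers summed to 2590 and 2590 FPKM in WT and to 2330 and 2190 FPKM in R111A, and none was at 0. Lat had the highest mean over the 4 libraries (413.13 and 436.42 FPKM for WT, 580.08 and 583.08 for R111A), although Cd3g, named after its values were seen, was higher in WT (453.99 and 465.39 FPKM). Of the 10, 2 rose and 5 fell, against 21.2% and 32.1% of all genes. The largest fall was in Thy1 (-1.90), named after its value was seen. Cd4, named after its value was seen, was at 157.54 and 131.28 FPKM in WT, against 70.69 and 51.35 FPKM in R111A. The 9 B cell markers summed to 2.93 and 2.13 FPKM in WT and to 5.28 and 4.58 FPKM in R111A. Cd79a had the highest mean over the 4 libraries (0.32 and 0.24 FPKM for WT, 2.99 and 2.37 for R111A), while Fcer2a, named after its values were seen, was higher than Cd79a in WT (0.72 and 1.08 FPKM) and at 0.03 and 0.00 FPKM in R111A. The 12 myeloid markers summed to 3.17 and 2.52 FPKM in WT and to 17.9 and 12.8 FPKM in R111A, led by Cd68 (8.89 and 6.81 FPKM in R111A), with S100a9 at 0. The 7 NK cell markers summed to 1.64 and 1.70 FPKM in WT and to 12.6 and 9.73 FPKM in R111A, led by Eomes (6.68 and 4.32 FPKM in R111A), which activated T cells can express too. The 7 erythroid markers summed to 0.66 and 0.85 FPKM in WT and to 13.2 and 13.2 FPKM in R111A, led by Hba-a1 (12.26 and 11.74 FPKM in R111A), with Hba-a2 and Hbb-bs listed at 0, although the counting may have split reads between such near-identical globin genes. The B cell, myeloid, NK cell and erythroid sums of both R111A replicates each lay above those of WT. The CD8 markers summed to 7.31 and 6.76 FPKM in WT and to 3.88 and 4.46 FPKM in R111A, led by Cd8b1. The 6 Treg markers, of which activated T cells express several, summed to 200 and 199 FPKM in WT and to 149 and 153 FPKM in R111A. Most of each sum was Il2ra (140.21 and 136.12 FPKM for WT, 127.30 and 128.61 for R111A), which did not pass the test. Foxp3, the transcription factor gene that defines Tregs and named after its values were seen, was at 11.31 and 8.78 FPKM in WT, against 2.86 and 1.86 FPKM in R111A (log2 fold change -1.72, SE 0.19, adjusted p = 0.00015 from limma, and -1.03 with a pseudocount of 5 FPKM). Ctla4 fell as well, and Ikzf4 (0.53), named after its value was seen, rose but did not pass in TPM (0.26), with no filter (0.53), or without WT replicate 1 (0.57) or WT replicate 2 (0.49), and was at 0.33 without R111A replicate 1 and 0.30 with a pseudocount of 5 FPKM. Apart from the zeros named, no marker was at 0 in all 4 libraries, and the part of these cells in the levels of the decay genes was not tested.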

How the data were processed

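RNA-seq was analysed for 2 WT and 2 R111A libraries. By the submitters' notes and methods, polyA RNA was sequenced, and trimmed reads were aligned to mm10 with Bowtie2 (2.4.4) and quantified with RSEM (1.2.28). The authors deposited FPKM for 16142 genes, and 0 columns of per-sample values were left out. FPKM is not a count, so the reads behind a value are not known. Relative depth was estimated roughly, from the ratio at which low values (0.1 to 0.6 FPKM) of a library pile up against WT replicate 1, whose depth came out 1.01, 1.05 and 1.18 times that of WT replicate 2, R111A replicate 1 and R111A replicate 2.

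For the comparison limma (3.58.1, R 4.3.3; lmFit, eBayes with trend, Benjamini-Hochberg over 9831 genes with a mean of 1 FPKM or more) was run on log2(FPKM + 1). The study's methods name DESeq2 on counts, which was not repeated here. Members and lists were chosen with earlier results of these data known. Named are all 10 members, from each list the 3 genes with the largest absolute change among those that passed and did not overlap between the groups, the 3 genes nearest to Zc3h12a, Zfp36l2 and Rc3h1, and from each marker list the most abundant gene and those at 0. All 127 listed symbols were found in the table by symbol or RefSeq synonym, and Mtrex and Skiv2l2 of the exosome list name the same gene. Of the lists as first written, 2 genes are not reported here, for a reason that does not rest on their values, so the list counts and medians are those of the lists without them. For 3′UTRs, 1 GENCODE M21 transcript per gene was used (the best APPRIS principal, then the longest; 9736 genes), and stem-loops were predicted with RNAfold (2.7.2) in windows of 100 nt, with a stem of at least 3 pairs, a G-C pair among them, and a loop of 3 to 6 nt. Each 3′UTR was compared with those of tested genes at least as long, read over the same number of bases. Other steps used python 3.11.15, numpy 2.4.6 and pandas 2.3.3. Alternatives were pseudocounts of 0.1 and 5 FPKM, no filter, a filter at 5 FPKM, rescaling to TPM, quantile normalization, median-of-ratios factors, the replicate block, eBayes with no trend, eBayes with trend and robust, and each library left out.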

Additional observations from a re-analysis of the deposited data

How the results depend on the processing

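Zc3h12a, Zfp36, Zc3h12d and Rc3h1 kept their direction and passed under each of 14 alternatives (log2 fold change 2.90 to 3.51, 0.73 to 1.52, -1.26 to -0.78 and -1.04 to -0.51). With 1 library left out, the lone library of its group was taken to vary like the others, and the values ran from 2.93 to 3.51, 0.73 to 1.52, -0.96 to -0.90 and -0.91 to -0.56.

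The number of the other 8 tested genes that passed was 3, and it was 5 in TPM, after quantile normalization and with median-of-ratios factors. Over all genes these settings gave 6431, 4945 and 5032 in place of 5240. In TPM Zfp36l2 (-0.68) and Upf1 (-0.38) passed as lower and Rc3h2 reversed to -0.12. With median-of-ratios factors N4bp1 (0.47) and Zfp36l1 (0.54) passed and Upf1 reversed to 0.08, and with quantile normalization the same genes were at 0.41, 0.62 and 0.10. With libraries left out, Rc3h2 ran from -0.27 to 0.61, Upf1 from -0.21 to 0.11, N4bp1 from 0.27 to 0.42, Zfp36l1 from 0.12 to 0.68 and Zfp36l2 from -0.58 to -0.13. The cause was not tested.

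All genes that passed numbered 5240, and from 3370 to 6291 with a library left out. Per list, with a library left out, the number that passed ran from 1 to 7 (nonsense-mediated decay), 3 to 7 (deadenylases), 4 to 10 (decapping), 1 to 12 (exosome), 4 to 14 (other factors), 2 to 6 (MALT1 list) and 6 to 11 (Regnase-1 or Roquin targets) and 11 to 12 (TTP targets). Of the nonsense-mediated decay list 5 passed in TPM, 5 with median-of-ratios factors and 5 after quantile normalization. In TPM 9 deadenylases passed, and 5 exosome genes did with median-of-ratios factors and 5 after quantile normalization. Shares within families kept their direction with each library left out, an alternative chosen after seeing the data. As no share compared overlapped between the groups, leaving out 1 library could not have turned its direction.

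The replicate numbers were not shown to pair the libraries: over genes, the differences between replicates of the 2 groups correlated at 0.111, with 2 pairs only. With the replicate block 2236 genes rose and 3358 fell, and Zfp36l1 (0.40) passed. The depth behind each value is not known, so no counting interval could be given, and with 2 libraries a group the adjusted p-values rest on the spread pooled across genes.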
